A study of Mus musculus domesticus and Mus musculus domesticus x Mus musculus castaneus and Mus musculus castaneus with 27 samples.

Results

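Interferon response and antigen presentation genes were described in cultured mouse pluripotent stem cells (PSC) and in motor neurons (MN) made from them. The set was chosen by gene symbol and matched to Ensembl identifiers: Tap1, B2m, H2-K1, H2-D1 and Psmb8 of class I antigen presentation, the transcription factors Irf1 and Irf7, and the interferon-induced effectors Ifit1 and Isg15. Of these 9 genes, 7 had values among the 27071 gene identifiers of the count table, and H2-K1 and H2-D1 are not analysed here.

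Interferons are secreted proteins that bind cell-surface receptors and, through Janus kinases, STAT proteins and interferon regulatory factors, switch on antiviral genes in the same and neighbouring cells. Class I antigen presentation shows peptides cut by the proteasome to cytotoxic T cells: TAP carries the peptides into the endoplasmic reticulum, where they are loaded onto a heavy chain paired with beta-2-microglobulin. Pluripotent cells are known for a weak response to interferon, and resting neurons for low class I presentation.

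The study sequenced messenger RNA to characterise the lines of a neuron culture model. The MN groups were 129CAS (1 library), CAS129 (3 libraries), CAST/EiJ (CAST, 1 library), 129S6/SvEv (129, 2 libraries) and C57BL/6 (BL6, 7 libraries), and the PSC groups were CAS129, CAST and BL6 (2 libraries each). BL6 and 129 are classical inbred strains. CAST was bred from wild mice of another subspecies, and CAS129 and 129CAS are F1 hybrids of CAST and 129. For these 20 libraries the labels name no treatment, transgene, age or batch, and give neither the mother's strain of each hybrid nor the number of clones behind a line. RNA of MN and of PSC was extracted with different kits, so the kit and the cell type cannot be told apart.

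In the sequences below, a read that lies wholly within identical bases could not be assigned to 1 gene of the pair on the C57BL/6J reference. The first pair is a coding stretch of Ifit1 (chr19:34647592-34647831, plus strand) and of its neighbour Ifit1bl2 (chr19:34619825-34620064, minus strand), on GRCm38 with GENCODE M21 transcripts. Capitals mark the bases that differ within the pair, 17 of 240, and the longest identical run of the coding parts is 180 bases.
Ifit1: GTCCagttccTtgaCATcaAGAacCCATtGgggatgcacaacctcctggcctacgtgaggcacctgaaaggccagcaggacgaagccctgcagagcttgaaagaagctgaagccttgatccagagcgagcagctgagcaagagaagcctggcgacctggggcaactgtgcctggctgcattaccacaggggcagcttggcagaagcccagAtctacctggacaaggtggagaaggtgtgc
Ifit1bl2: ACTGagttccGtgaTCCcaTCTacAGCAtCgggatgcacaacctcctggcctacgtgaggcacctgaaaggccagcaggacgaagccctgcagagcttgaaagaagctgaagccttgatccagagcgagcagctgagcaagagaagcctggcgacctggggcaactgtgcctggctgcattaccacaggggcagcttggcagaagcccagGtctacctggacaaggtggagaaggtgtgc
Of the windows of 50 bases in Ifit1, 7.135% occur in another gene, nearly all of them in Ifit1bl2. Ifit1bl2 averaged at most 0.591 CPM (counts relative to the scaled library total) and its relative Ifit1bl1 at most 0.694 CPM in any group, so reads assigned to them were few beside the highest Ifit1 levels given below.

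The second pair is from the class I heavy chain genes H2-K1 (chr17:33997313-33997463, minus strand) and H2-D1 (chr17:35265881-35266031, plus strand), whose proteins bind the peptide, and is shown because their levels are not analysed here. Capitals mark the 4 of 151 bases that differ.
H2-K1: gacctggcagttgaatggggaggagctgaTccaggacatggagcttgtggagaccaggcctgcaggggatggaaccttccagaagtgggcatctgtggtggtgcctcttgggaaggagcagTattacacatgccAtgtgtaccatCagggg
H2-D1: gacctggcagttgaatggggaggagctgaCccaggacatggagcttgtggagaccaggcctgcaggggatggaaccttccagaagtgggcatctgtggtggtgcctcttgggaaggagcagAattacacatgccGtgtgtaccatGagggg
In windows of 50 bases, 9.633% of H2-K1 and 12.775% of H2-D1 recur in other genes. Heavy chain genes are also among the most polymorphic in mice, so reads of CAST or 129 alleles may map poorly to this reference, which was not tested. B2m and Irf7 shared no such window with another gene, Irf1 shared 1.236%, Tap1 3.326%, Isg15 3.96% and Psmb8 11.885%, the last mostly with the antisense gene Gm20496.

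Several of the class I genes lie close together in the major histocompatibility complex on chromosome 17 of GRCm38. Tap1 (ENSMUSG00000037321, 34187553 to 34197225) and Psmb8 (ENSMUSG00000024338, 34197721 to 34201454) are neighbours on the plus strand, and H2-K1 (ENSMUSG00000061232, 33996017 to 34000347) lies on the minus strand. H2-D1 (ENSMUSG00000073411) spans 35262730 to 35267499 of the same chromosome. B2m (ENSMUSG00000060802) lies on chromosome 2 from 122147686 to 122153083, and Irf1 (ENSMUSG00000018899) on chromosome 11 from 53770014 to 53778374. Irf7 (ENSMUSG00000025498) lies on chromosome 7 from 141262706 to 141266481, Ifit1 (ENSMUSG00000034459) on chromosome 19 from 34640871 to 34650009, and Isg15 (ENSMUSG00000035692) on chromosome 4 from 156199424 to 156200818. These positions are whole protein-coding genes. Psmb8 shares 498 exon bases with Gm20496 and Tap1 shares 212 with Psmb9, each on the opposite strand, and whether counting used the strand is not stated in the labels. Their counts are therefore uncertain to that extent.

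Library totals ran from 5.61 M to 44.57 M counts in MN and from 4.5 M to 13.62 M in PSC, and the deepest were the 129 MN libraries. CAS129 MN kept summed pluripotency markers of 419 to 1162 CPM, against 8.02 to 25.9 CPM in BL6 MN. Mesenchyme markers summed to 21030 to 73878 CPM in MN, against 2150 to 6863 CPM in PSC and pan-neuronal markers to 1015 to 12224 CPM in MN. Lymphocyte markers summed to at most 9.71 CPM in any library. Macrophage markers came mainly from Csf1r, while Ptprc, which marks all blood-derived immune cells, averaged at most 0.688 CPM in any group. The BL6 PSC replicates stood apart from each other. Of 40 interferon-stimulated effector genes that reached 1 CPM in either, Ifit1 and Isg15 included, 34 were higher in replicate 1. The median difference over the 40 genes was 1.18 on the log2 scale. The share of all genes higher in replicate 1 was not counted, so this difference is not shown to be particular to the effectors. Over all genes the chi-square per degree of freedom between replicates, which also grows with depth, was 115 in BL6 PSC. It was 26.0 in CAST PSC and 24.6 in CAS129 PSC. The counts of effectors higher in replicate 1 were 15 of 25 in CAS129 PSC and 18 of 27 in CAST PSC. Results of the 7 genes that rest on BL6 PSC are therefore given also without replicate 1. With only 2 libraries, neither can be called the unusual one. Replicate 1 was singled out by values of this same gene set, so these refits show only how far a result depends on that library. Their adjusted p-values are not separate evidence. Hybrid libraries stood apart as well. Of the genes at 5 CPM or more in every BL6 MN library, 5.05% had 0 counts in the 129CAS MN library and 4.83% in all CAS129 MN libraries, against 0.139% in CAST MN and 0.237% in 129 MN. In PSC the shares were 5.04% in CAS129 and 0.173% in CAST. The labels do not say whether the hybrid libraries were aligned and counted like the others, so whether low hybrid values come from the cells or from the processing was not tested. This limit holds for every value of CAS129 and 129CAS set beside an inbred group.

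**Figure D1:**
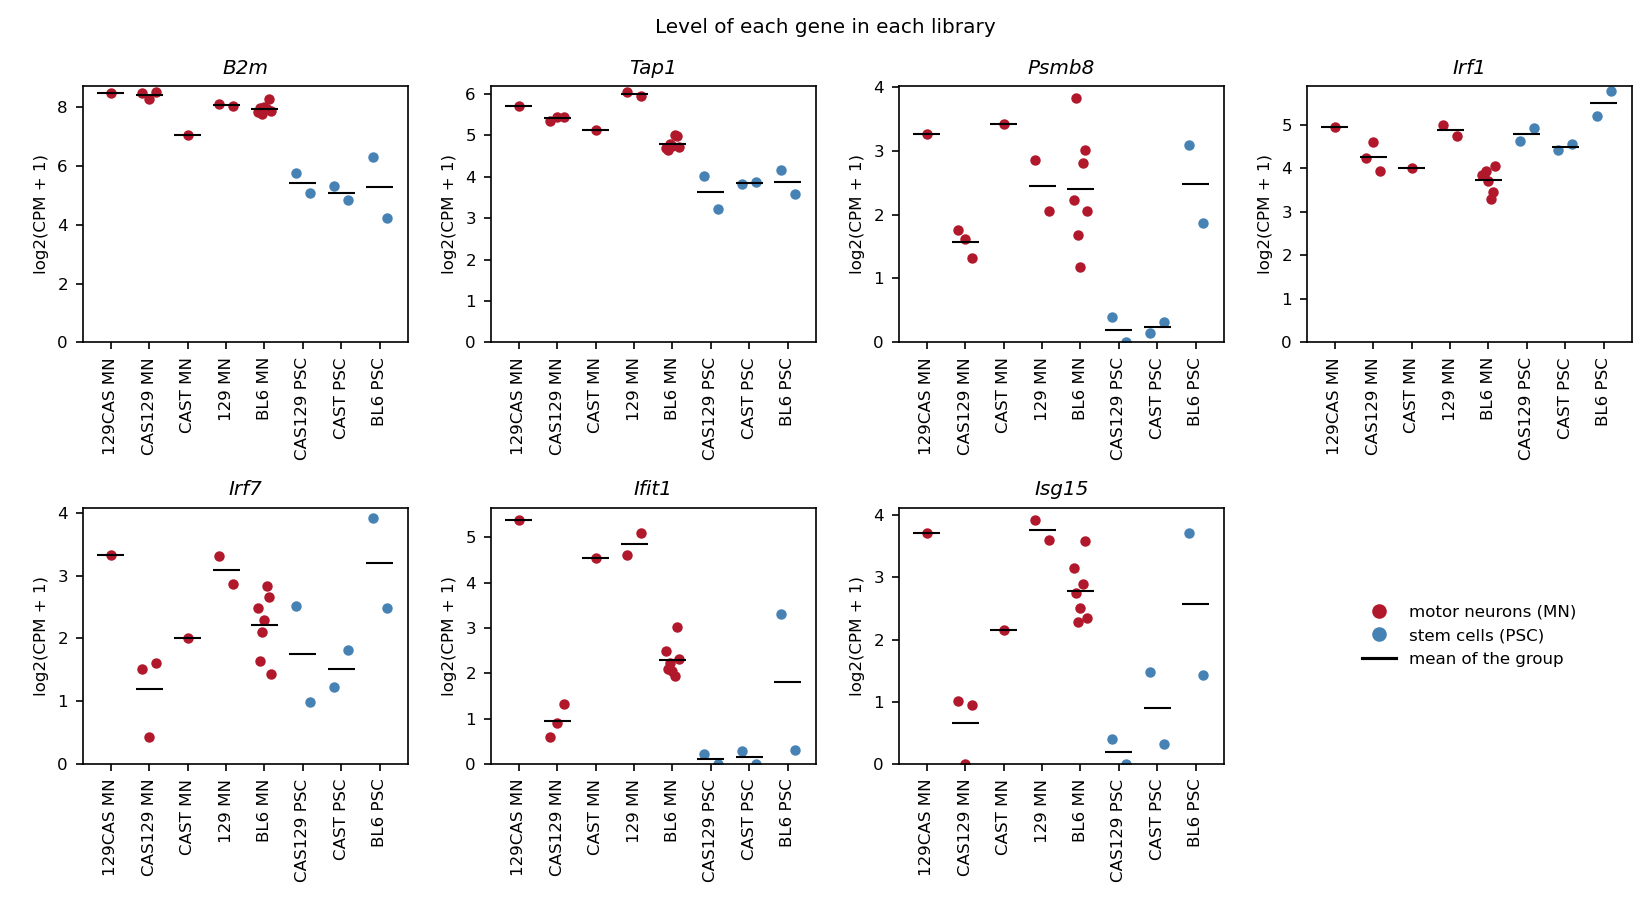
Level of each gene in each library, as log2(CPM + 1) on the vertical axis, by group on the horizontal axis. Points are libraries, red for MN and blue for PSC, and the line is the mean of the group. B2m and Tap1 are higher in every MN library than in every PSC library, and Ifit1 and Isg15 are lower in CAS129 MN than in the other MN groups.

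B2m, the constant light chain of class I molecules, and Tap1, a subunit of the peptide transporter, were higher in MN than in PSC, and Irf1, a transcription factor induced by interferon gamma, was lower. Over the 17 libraries of CAS129, CAST and BL6, with genotype as a term, 3 of the 7 genes passed the test (2 higher and 1 lower), where 74.6% of all genes did (36.1% higher and 38.5% lower). The members' share is below the background, so the count is no result about these genes. Without BL6 PSC replicate 1 the test called 6, 5 higher and 1 lower. The median log2 fold change was 1.17 for the 7 genes and -0.05 for all 15596 genes tested. Each adjusted p-value printed comes from the quasi-likelihood test of edgeR, adjusted by Benjamini-Hochberg over all genes tested and called at 0.05, and fold changes are on the log2 scale with their standard error (SE). CAST MN and 129CAS MN are 1 library each, so a test with either takes its spread from the other groups. In such bulk libraries, fewer cells of a type and less RNA per cell cannot be told apart. Mesenchyme markers also summed higher in MN than in PSC, as given above. The part of cell mixture in the MN-PSC differences was not tested. Where groups are said below not to overlap, the share of all genes for which this held was not counted. Such separation is therefore no result about the members.

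B2m measured 352, 311 and 362 CPM in CAS129 MN, 131 CPM in CAST MN, and 215, 243 and 306 CPM (lowest, median and highest) in BL6 MN. In PSC it measured 52.6 and 33.0 CPM in CAS129, 38.8 and 27.6 CPM in CAST, and 78.0 and 17.98 CPM in BL6. All MN libraries lay above all PSC libraries. The log2 fold change was 2.37 ± 0.27 (edgeR adjusted p = 5.05e-07), and 2.96 without BL6 PSC replicate 1. Per kilobase of exon B2m averaged 287 CPM in BL6 MN, above 99.7% of genes.
Tap1 measured 39.8, 42.6 and 42.9 CPM in CAS129 MN, 34.0 CPM in CAST MN, and 24.3, 26.0 and 31.2 CPM in BL6 MN. In PSC it measured 15.3 and 8.41 CPM in CAS129, 13.3 and 13.8 CPM in CAST, and 16.9 and 10.9 CPM in BL6. The groups again did not overlap, with a log2 fold change of 1.17 ± 0.18 (edgeR adjusted p = 1.4e-05), and 1.51 without BL6 PSC replicate 1.
Psmb8, the subunit of the immunoproteasome that replaces a constitutive one under interferon, measured 2.38, 2.08 and 1.49 CPM in CAS129 MN, 9.72 CPM in CAST MN, and 1.26, 3.70 and 13.1 CPM in BL6 MN. In PSC it measured 0.313 and 0 CPM in CAS129, 0.111 and 0.251 CPM in CAST, and 7.54 and 2.63 CPM in BL6. MN and PSC overlapped through the BL6 libraries, and the log2 fold change of 1.43 ± 0.70 did not pass (edgeR adjusted p = 0.0721), although it did by DESeq2 (adjusted p = 0.0251). Without BL6 PSC replicate 1 it was 2.61 (edgeR adjusted p = 0.00392).

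Irf1 measured 17.8, 23.2 and 14.4 CPM in CAS129 MN, 15.0 CPM in CAST MN, and 8.77, 13.3 and 15.7 CPM in BL6 MN. In PSC it measured 23.8 and 29.5 CPM in CAS129, 20.3 and 22.7 CPM in CAST, and 36.1 and 53.6 CPM in BL6. Only 1 CAS129 MN library reached the PSC range, and the log2 fold change was -1.29 ± 0.21 (edgeR adjusted p = 2.61e-05), and -1.13 without BL6 PSC replicate 1.
Irf7, the factor that amplifies type I interferon production, measured 1.87, 0.346 and 2.05 CPM in CAS129 MN, 3.02 CPM in CAST MN, and 1.71, 3.91 and 6.13 CPM in BL6 MN. In PSC it measured 4.70 and 0.978 CPM in CAS129, 1.33 and 2.51 CPM in CAST, and 14.1 and 4.57 CPM in BL6. The groups overlapped, and the log2 fold change of -0.95 ± 0.44 missed the threshold (edgeR adjusted p = 0.0586). It was -0.33 without BL6 PSC replicate 1 (edgeR adjusted p = 0.559) and -1.11 without replicate 2 (edgeR adjusted p = 0.0429).

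Ifit1, which binds viral RNA lacking a host-type cap, measured 0.510, 0.865 and 1.49 CPM in CAS129 MN, 22.2 CPM in CAST MN, and 2.85, 3.65 and 7.12 CPM in BL6 MN. In PSC it had 1 and 0 counts in CAS129 and 2 and 0 counts in CAST, and measured 8.90 and 0.232 CPM in BL6. BL6 PSC replicate 1 was thus the only PSC library with more than 3 counts. The log2 fold change over all genotypes was 1.37 ± 0.87 (edgeR adjusted p = 0.161), and 5.33 without that library (edgeR adjusted p = 4.4e-06).
Isg15, a ubiquitin-like protein that is attached to other proteins in the antiviral response, measured 1.02, 0 and 0.933 CPM in CAS129 MN, 3.46 CPM in CAST MN, and 3.89, 5.69 and 11.01 CPM in BL6 MN. In PSC it measured 0.313 and 0 CPM in CAS129, 1.77 and 0.251 CPM in CAST, and 12.1 and 1.70 CPM in BL6. The groups overlapped, and the log2 fold change of 0.45 ± 0.56 did not pass (edgeR adjusted p = 0.48). Without BL6 PSC replicate 1 it was 1.82 (edgeR adjusted p = 0.0162).

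The genes around these in the pathway moved in both directions between MN and PSC, where 36.1% of all genes were higher and 38.5% lower. All 4 receptor chains tested that bind type I and type II interferon were higher in MN: Ifnar1 averaged 176 CPM in CAS129 MN, 81.3 CPM in CAST MN and 109 CPM in BL6 MN, against 55.4, 40.6 and 39.3 CPM in CAS129, CAST and BL6 PSC (log2 fold change 1.32 ± 0.14, edgeR adjusted p = 1.56e-07). Ifngr2 had a log2 fold change of 3.65 ± 0.20, Ifngr1 of 1.99 ± 0.23 and Ifnar2 of 1.03 ± 0.18. Of the list of 11 ligand and receptor genes with values, 5 were tested, and 4 of these rose and 1, the interferon lambda receptor chain Ifnlr1, fell (-1.17). Ifnb1, which encodes interferon beta, had no count outside 129CAS MN. There it measured 0.0412 CPM, below the 0.123 CPM that 3 counts give in that library, which is too little to give a level. Of 19 signalling and regulatory factors tested, other than the 7 genes above, 4 rose and 9 fell, among them the kinase Jak1 at 2.13 ± 0.20 and Stat3 at 1.40 ± 0.14, and the feedback inhibitor Socs3 at -1.04 ± 0.24. Of 18 genes of class I peptide supply, 7 rose and 3 fell, with a list median of 0.36 against -0.05 for all genes. Tapbp, the tapasin that holds TAP to the heavy chain, rose by 1.10 ± 0.21, and the aminopeptidase Lnpep by 1.52 ± 0.30. Of 4 heavy chain-like genes tested, H2-M5 fell (-4.50 ± 0.39) and Mr1, which presents microbial metabolites, rose (1.47 ± 0.59). Of 11 nucleic acid sensing genes, 5 rose and 5 fell. The share of signalling genes that fell lies near that of all genes.

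Interferon-stimulated effectors split between MN and PSC. Of 39 tested, 9 were higher in MN and 13 lower, with a median log2 fold change of 0.05, where 36.1% of all genes were higher and 38.5% lower. The 4 named by mean level all fell (log2 fold changes): Trim25, an activator of RNA sensing, at -2.12 ± 0.21, Ifitm2 at -2.23 ± 0.22 and Ifitm3 at -1.09 ± 0.26, which restrict virus entry, and Zc3hav1, an antiviral RNA-binding protein, at -2.42 ± 0.35. Leaving out 1 library at a time gave 8 to 17 higher and 9 to 16 lower, and without BL6 PSC replicate 1 the counts were 17 higher and 9 lower. Of 7 class II presentation genes, 5 fell and 0 rose, all at low levels (6 and 1 without BL6 PSC replicate 1): Cd74, the invariant chain, averaged 0.297, 0 and 0.179 CPM in CAS129, CAST and BL6 MN, against 1.55, 1.95 and 2.45 CPM in the PSC of these genotypes.

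Within a genotype, B2m and Tap1 were higher in MN than in PSC in CAS129, CAST and BL6. For B2m the log2 fold change was 2.99 ± 0.43 in CAS129 (edgeR adjusted p = 2.03e-05), 1.98 ± 0.49 in CAST (edgeR adjusted p = 0.00247) and 2.36 ± 0.39 in BL6 (edgeR adjusted p = 3.95e-05). The BL6 value was 3.78 without BL6 PSC replicate 1 (edgeR adjusted p = 8.24e-08) and 1.58 without replicate 2 (edgeR adjusted p = 0.000305). The B2m change did not differ between genotypes past the threshold, but without BL6 PSC replicate 1 that of CAST lay 1.79 below that of BL6 (edgeR adjusted p = 0.00614), and without replicate 2 that of CAS129 lay 1.20 above it (edgeR adjusted p = 0.0309). For Tap1 it was 1.80 ± 0.26 in CAS129, 1.33 ± 0.31 in CAST and 0.95 ± 0.22 in BL6, and the BL6 call was lost without BL6 PSC replicate 2 (0.59, edgeR adjusted p = 0.0765) but not without replicate 1 (1.30, edgeR adjusted p = 0.00053). Called genes numbered 3 of 7 in CAS129, all higher, against 54.4% of all genes (30.4% higher and 23.9% lower). In CAST they numbered 4 of 7, all higher, against 56% (30.3% higher and 25.7% lower). In BL6 they numbered 4 of 7, 2 higher and 2 lower, against 70.2% (36% higher and 34.2% lower), and without BL6 PSC replicate 1 the 4 were 3 higher and 1 lower. These shares lie near or below the background.

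Irf1 fell in BL6 (log2 fold change -1.84 ± 0.22, edgeR adjusted p = 1.08e-06, and -2.10 without BL6 PSC replicate 1), while in CAS129 it was at -0.53 ± 0.28 (edgeR adjusted p = 0.118, but 0.0213 with RLE scaling, which moved the members by -0.27) and in CAST at -0.52 ± 0.38 (edgeR adjusted p = 0.255). Its change differed between CAS129 and BL6 by 1.31 ± 0.37 (edgeR adjusted p = 0.0202), the only 1 of the 7 genes to pass there, where 18.2% of all genes did (13.7% higher and 4.53% lower). Without BL6 PSC replicate 1 the difference was 1.57 (edgeR adjusted p = 0.00882). That call was lost without BL6 PSC replicate 2 (0.90, edgeR adjusted p = 0.147), and also without either PSC replicate of CAS129, without CAS129 MN replicate 1 or 2, and with RLE scaling (1.03, edgeR adjusted p = 0.0683). Its difference between CAST and BL6 was of similar size, 1.32 ± 0.43, and did not pass (edgeR adjusted p = 0.0725), although it did without BL6 PSC replicate 1 (1.58, edgeR adjusted p = 0.0238). Irf7 fell in BL6 at -1.26 ± 0.54 (edgeR adjusted p = 0.0452), but without BL6 PSC replicate 1 the value was -0.24 (edgeR adjusted p = 0.795). That call was also lost by DESeq2, with no filter, and without BL6 MN replicate 1, 2, 3 or 7.

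Psmb8 was higher in MN than in PSC in CAST and CAS129, where its PSC levels rested on 3 and 2 counts. In CAST, 90 counts in MN against 3 in PSC gave a ratio of 55.1 per scaled library (95% counting interval 18.2 to 272), with an edgeR adjusted p of 0.000897. In CAS129, 34 counts in MN against 2 in PSC gave a ratio of 11.5 (2.94 to 98.7), with an edgeR adjusted p of 0.0304 that was lost without any 1 of CAS129 MN replicate 1 or 2 or the CAS129 PSC replicates. In BL6 the log2 fold change was 0.04 ± 0.65 (edgeR adjusted p = 0.972), and 0.99 without BL6 PSC replicate 1 (edgeR adjusted p = 0.361). The difference between CAST and BL6 was 5.66 ± 1.39 (edgeR adjusted p = 0.0216), and 4.71 without BL6 PSC replicate 1 (edgeR adjusted p = 0.0424). It missed the threshold without CAST PSC replicate 1 (5.18, edgeR adjusted p = 0.104) or replicate 2 (6.29, edgeR adjusted p = 0.0726).
Ifit1 had 206 counts in CAST MN against 2 in CAST PSC, a ratio of 189 (51.7 to 1571, edgeR adjusted p = 0.000178), and in BL6 a log2 fold change of -0.17 ± 0.66 (edgeR adjusted p = 0.84). The CAST change exceeded the BL6 change by 7.62 ± 1.5 (edgeR adjusted p = 0.00557). This BL6 value was set by single PSC libraries: it was 4.08 without replicate 1 (edgeR adjusted p = 0.00047) and -1.21 without replicate 2 (edgeR adjusted p = 0.0342). Without replicate 1 the difference between CAST and BL6 was 3.38 (edgeR adjusted p = 0.117). Ifit1 and Psmb8 were the 2 of 7 genes called for that difference, where 7.28% of all genes were called (4.55% higher and 2.73% lower). Each such fitted value against a few counts depends on how low counts are moderated.

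**Figure D2:**
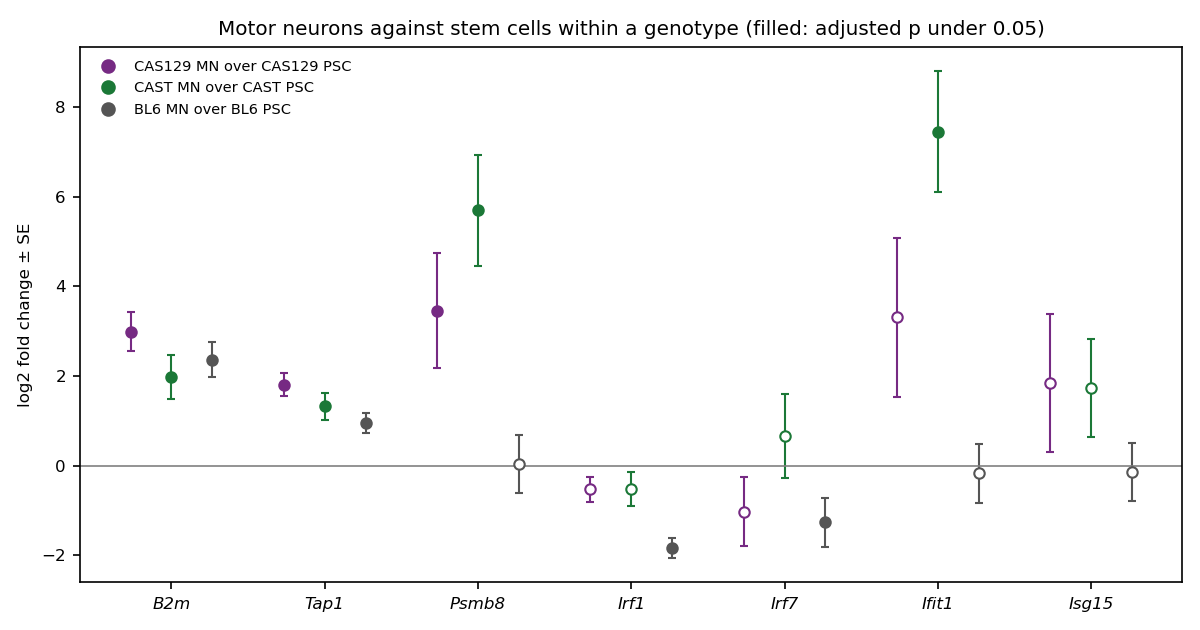
Log2 fold change of MN over PSC within CAS129, CAST and BL6 for each gene, with SE bars. Filled points passed at an adjusted p under 0.05. B2m and Tap1 lie above 0 in all 3 genotypes, and Psmb8 and Ifit1 are highest in CAST.

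Among PSC, Psmb8 and Isg15 were lower in CAS129 than in BL6, and Psmb8 was lower in CAST than in BL6. The BL6 levels came mostly from replicate 1, and Psmb8 reached the minimum for testing only through the BL6 PSC libraries. Its test could therefore only find it lower outside BL6, so its calls are no evidence for that direction. Of the 6 genes tested, CAS129 against BL6 called 2, both lower, where 25.8% of all genes were called (8.72% higher and 17% lower). Isg15 had 2 counts in CAS129 PSC against 191 in BL6 PSC, a ratio of 0.0244 (95% counting interval 0.00294 to 0.0895, edgeR adjusted p = 0.0363). Psmb8 had 2 counts against 139, a ratio of 0.0336 (0.00403 to 0.124, edgeR adjusted p = 0.0172). Without BL6 PSC replicate 1 the Isg15 call was lost (-3.19, edgeR adjusted p = 0.173), as it was without either CAS129 PSC replicate, and the Psmb8 call was lost without CAS129 PSC replicate 2 (-3.91, edgeR adjusted p = 0.0725). CAST against BL6 called 1 of 6, where 10.5% of all genes were called (5.74% higher and 4.81% lower): Psmb8, with 3 counts in CAST PSC against 139 in BL6 PSC, a ratio of 0.0341 (0.00694 to 0.102, edgeR adjusted p = 0.0284). That call was lost without either CAST PSC replicate (edgeR adjusted p = 0.223 and 0.143). Without a BL6 PSC library Psmb8 fell under the minimum for testing. With the tested genes kept as they were, an alternative added after the data were seen, both Psmb8 calls were lost without BL6 PSC replicate 1: the value was -3.81 in CAS129 (edgeR adjusted p = 0.072) and -3.76 in CAST (edgeR adjusted p = 0.0786).

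Between CAS129 and CAST PSC none of the 6 genes passed, by edgeR or by DESeq2, and 0 had an unadjusted p under 0.05, where 14% of all genes were called (2.27% higher and 11.7% lower). B2m differed by 0.38 ± 0.60 and Tap1 by -0.17 ± 0.44 on the log2 scale there. Ifit1 did not reach the minimum for testing in PSC, with 1 count in CAS129 PSC, 2 in CAST PSC and 127 in BL6 PSC, 124 of the last in replicate 1. B2m and Tap1 did not pass in any PSC comparison, also without BL6 PSC replicate 1. Irf1 in CAST against BL6 PSC passed without that library (-1.31, edgeR adjusted p = 0.0381) but not with it (-1.03, edgeR adjusted p = 0.0912). Of all genes, 8.72% were higher and 17% lower in CAS129 than in BL6 PSC, and 5.74% higher and 4.81% lower in CAST. Among the other interferon-stimulated effectors, Gbp2, Ifit2 and Oasl2 reached the minimum for testing only through BL6 PSC and could only be called lower outside it. Mx1 reached it only through CAST and CAS129 PSC and could only be called higher, so the minimum partly fixed the counts of calls. Of 33 other effectors tested, CAS129 PSC had 5 higher and 9 lower than BL6 PSC, and CAST PSC 2 higher and 4 lower. With any 1 library left out these became 2 to 6 higher and 3 to 6 lower in CAS129, and 1 to 2 higher and 0 to 2 lower in CAST. Without BL6 PSC replicate 1, 27 were tested, with 6 higher and 4 lower in CAS129 and 2 higher and 2 lower in CAST. Bst2, or tetherin, which holds budding virus at the cell surface, averaged 41.8 ± 3.78 CPM in CAS129 PSC, 23.2 ± 8.07 CPM in CAST PSC and 135 ± 30.6 CPM in BL6 PSC (SD, 2 libraries each), and passed in both (edgeR adjusted p = 0.00905 and 0.00412), also without BL6 PSC replicate 1 (0.0265 and 0.0121). Ifitm2 went the other way, at 290 ± 28.9 CPM in CAS129 PSC, 323 ± 46.2 CPM in CAST PSC and 70.0 ± 27.6 CPM in BL6 PSC, and passed in both without that library (edgeR adjusted p = 0.00719 and 0.0136).

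In motor neurons of 129, Ifit1, Irf1 and Tap1 were higher than in BL6 and none of the 7 genes was lower. These are 3 of 7, where 36.4% of all genes were called (18.3% higher and 18.1% lower). Ifit1 measured 23.3 and 33.1 CPM in 129 MN, against 2.85, 3.65 and 7.12 CPM (lowest, median and highest) in BL6 MN, with a log2 fold change of 2.64 ± 0.29 (edgeR adjusted p = 1.44e-05). Tap1 measured 65.5 and 60.5 CPM in 129 MN, against 24.3, 26.0 and 31.2 CPM in BL6 MN (1.09 ± 0.12, edgeR adjusted p = 2.18e-05). Irf1 measured 30.9 and 26.0 CPM in 129 MN, against 8.77, 13.3 and 15.7 CPM in BL6 MN (1.05 ± 0.22, edgeR adjusted p = 0.00214). For these genes both 129 libraries lay above all BL6 libraries. The same held for Irf7, at 8.91 and 6.30 CPM in 129 MN against at most 6.13 CPM in BL6 MN, and for Isg15, at 14.2 and 11.2 CPM against at most 11.01 CPM, but neither passed (edgeR adjusted p = 0.178 and 0.131). The share of all genes separated in this way was not counted, so the separation adds nothing to these tests. B2m was at 276 and 263 CPM in 129 MN, within the BL6 range, with a difference of -0.01 ± 0.14.

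Of 37 interferon-stimulated effectors tested, other than the 7 genes, 22 were higher in 129 MN and 0 lower, with a median log2 fold change of 1.24 against 0.00 for all 14837 genes, where 18.3% were higher. Leaving out 1 library at a time gave 16 to 25 higher and 0 lower. Eif2ak2, the kinase PKR that stops translation on double-stranded RNA, averaged 103 ± 4.41 CPM in 129 MN and 38.4 ± 6.69 CPM in BL6 MN (1.28 ± 0.16, edgeR adjusted p = 5.9e-05). Ddx58, the RNA sensor RIG-I, averaged 76.0 ± 6.86 CPM in 129 MN and 29.98 ± 5.92 CPM in BL6 MN (1.20 ± 0.20). Zc3hav1 changed by 1.18 ± 0.17 and Trim25 by 0.71 ± 0.23. The factors that carry the type I signal to the nucleus also included rises, with Stat2 at 63.0 ± 1.9 CPM in 129 MN and 27.2 ± 9.19 CPM in BL6 MN (edgeR adjusted p = 0.00558) and Irf9 at 46.7 ± 3 CPM in 129 MN and 22.6 ± 8.68 CPM in BL6 MN (edgeR adjusted p = 0.0428). Irf5 fell, at 3.02 ± 1.03 CPM in 129 MN and 31.1 ± 4.12 CPM in BL6 MN. Of 20 signalling factors, 8 rose and 2 fell, but the rises numbered 5 without 129 MN replicate 1 and 4 without replicate 2. Tapbp rose by 0.82 ± 0.15, 1 of 2 rises and 1 fall among 18 peptide supply genes, where 0 rose without 129 MN replicate 1 and 1 without replicate 2. All errors of CPM are SD over 2 libraries of 129 MN and 7 of BL6 MN.

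The effectors with the highest fold changes there, picked out after the values were seen, were Rsad2 and Xaf1. Rsad2, or viperin, averaged 13.54 ± 2.01 CPM in 129 MN and 0.453 ± 0.269 CPM in BL6 MN (log2 fold change 4.74 ± 0.41, edgeR adjusted p = 1.43e-06). Xaf1, a pro-apoptotic interferon-induced gene, measured 112 and 92.2 CPM in 129 MN, against at most 10.6 CPM in any BL6 MN library, and 0.988 CPM in 129CAS MN. Beside these results, 129 MN were the deepest libraries, and their mesenchyme markers summed to 25794 to 37721 CPM, against 35836 to 73878 CPM in BL6 MN. Of 18 such markers, 10 were lower in 129 MN and 0 higher, and 3 were lower without 129 MN replicate 2. Pluripotency markers summed to 57.1 to 67.6 CPM in 129 MN, against 8.02 to 25.9 CPM in BL6 MN, and endothelial markers to 68.8 to 72.3 CPM, against 19.3 to 41.7 CPM. Of 10 motor neuron markers 5 were lower in 129 MN, but 1 without 129 MN replicate 1 and 2 without replicate 2. The part of depth and of cell mixture in these differences was not tested.

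**Figure D3:**
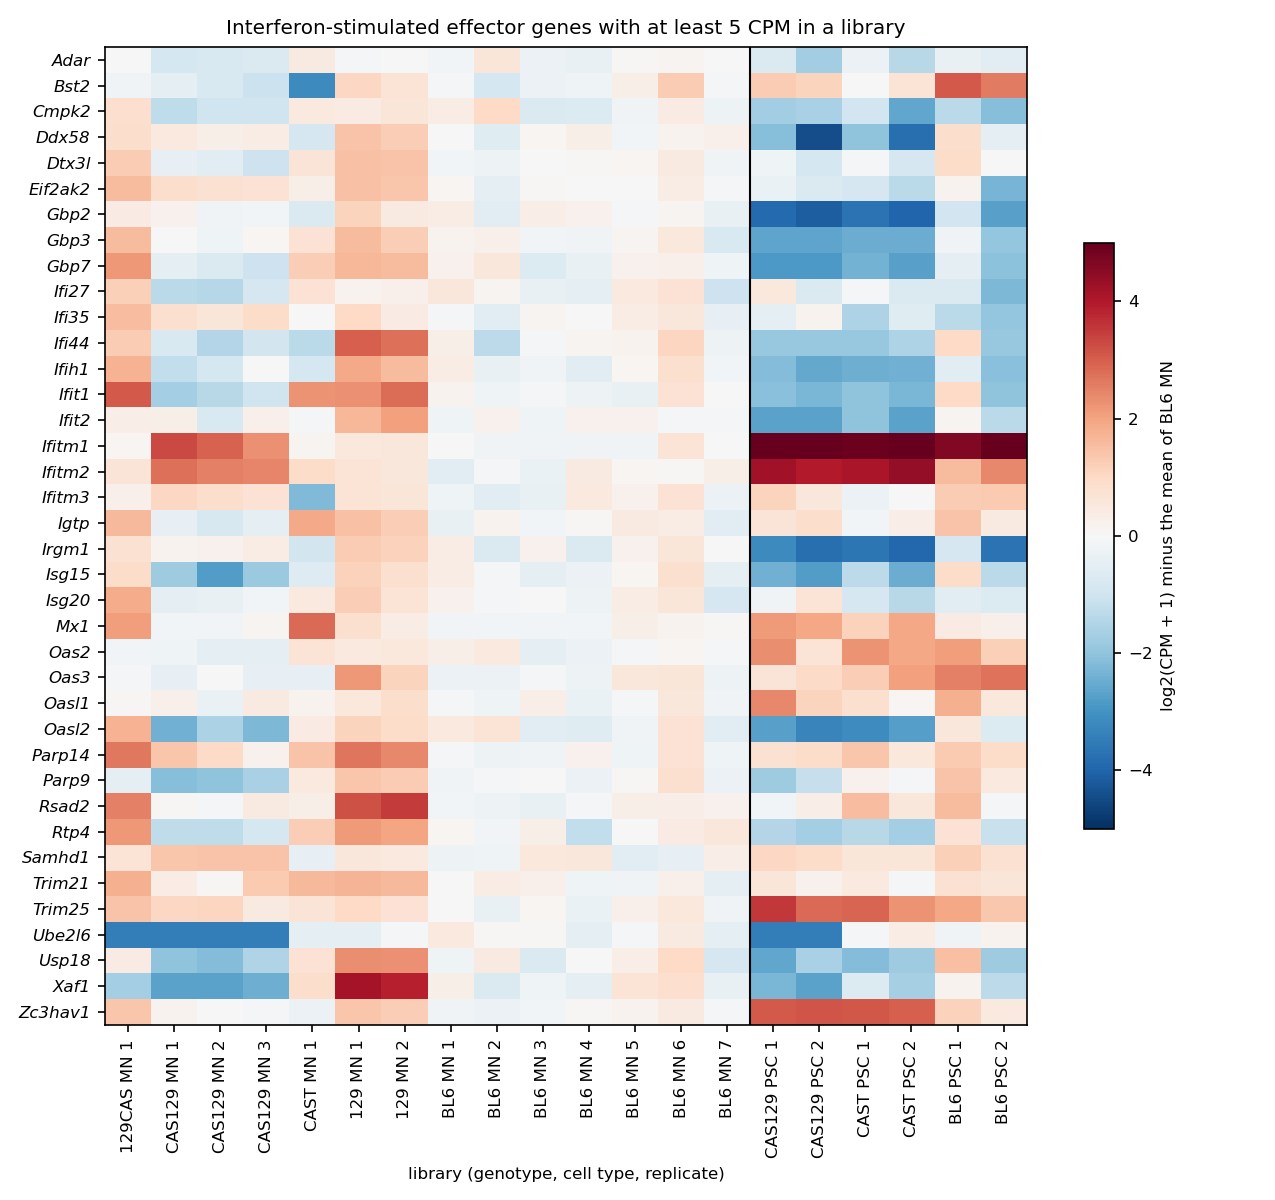
Interferon-stimulated effector genes (rows, 38 genes with at least 5 CPM in a library, Ifit1 and Isg15 included) in each library (columns, MN left of the black line and PSC right of it), as log2(CPM + 1) minus the mean of BL6 MN. The colour scale is limited to 5 in each direction. The 129 MN columns are red for most genes, the CAS129 MN columns are mixed, and Ube2l6 is blue in all hybrid libraries.

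CAST motor neurons, a single library whose spread is assumed to be that of the other groups, had Ifit1 higher and B2m lower than BL6. Ifit1 was at 22.2 CPM in CAST MN (log2 fold change 2.37 ± 0.37, edgeR adjusted p = 0.001), above the highest BL6 MN library at 7.12 CPM. B2m was at 131 CPM, below the lowest at 215 CPM (-0.99 ± 0.20, edgeR adjusted p = 0.00658). These are 2 of 7 genes, where 12.3% of all genes were called (5.76% higher and 6.58% lower). Tap1 was at 34.0 CPM against at most 31.2 CPM, a difference of 0.26 ± 0.18 that did not pass. Of the 37 other effectors, 4 were higher and 2 lower (3 to 6 and 2 to 5 with a library left out, and 6 and 5 without BL6 MN replicate 2). Of 18 peptide supply genes 0 were higher and 3 lower, but 8 were lower without BL6 MN replicate 2 and 1 without replicate 3 or 7. Mx1, a GTPase that traps viral particles, was at 6.80 CPM in CAST MN and 0.0959 ± 0.131 CPM in BL6 MN, while Bst2 was at 1.08 CPM in CAST MN and 19.8 ± 11.6 CPM in BL6 MN, both named after their values were seen. Mesenchyme markers were lowest in this library (21030 CPM), and motor neuron markers highest (2050 CPM, against 570 to 1850 CPM in BL6 MN).

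CAS129 motor neurons had lower Ifit1, Isg15 and Irf7 than BL6, and slightly higher B2m and Tap1. That is 5 of 7 genes, 2 higher and 3 lower, where 59.5% of all genes were called (27% higher and 32.5% lower). Ifit1 measured 0.510, 0.865 and 1.49 CPM in CAS129 MN, against at least 2.85 CPM in BL6 MN (-2.21 ± 0.41, edgeR adjusted p = 0.000484). Isg15 measured 1.02, 0 and 0.933 CPM in CAS129 MN, against at least 3.89 CPM in BL6 MN (-3.37 ± 0.60, edgeR adjusted p = 0.000333). For both, no CAS129 library reached the BL6 range. Irf7 overlapped (1.87, 0.346 and 2.05 CPM in CAS129 MN, against 1.71 CPM or more in BL6 MN), and its call (-1.56 ± 0.53, edgeR adjusted p = 0.0218) was lost without CAS129 MN replicate 2 (-1.10, edgeR adjusted p = 0.0943). B2m differed by 0.36 ± 0.12 (edgeR adjusted p = 0.0176), a call lost without CAS129 MN replicate 1 or 3 (edgeR adjusted p = 0.0638 and 0.0691). Tap1 differed by 0.52 ± 0.12 (edgeR adjusted p = 0.00173), and its CAS129 MN libraries lay above all BL6 MN libraries.

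Set against its parental strains, CAS129 lay below both for Ifit1 and Isg15. Against CAST MN, 4 of 7 genes were called, where 48.4% of all genes were (21.4% higher and 27% lower): B2m was higher (1.35 ± 0.22, edgeR adjusted p = 0.000315), and Ifit1 (-4.58 ± 0.50), Isg15 (-2.43 ± 0.81, edgeR adjusted p = 0.0253) and Psmb8 (-2.31 ± 0.89, edgeR adjusted p = 0.0463) were lower. The Psmb8 call was lost with any CAS129 MN library left out. Against 129 MN, 4 of 7 were called, all lower, where 56.7% of all genes were (25.2% higher and 31.4% lower): Ifit1 (-4.85 ± 0.45, edgeR adjusted p = 1.24e-06), Isg15 (-4.25 ± 0.66), Irf7 (-2.39 ± 0.61, edgeR adjusted p = 0.0047) and Tap1 (-0.56 ± 0.15, edgeR adjusted p = 0.00626). The Tap1 call was lost without 129 MN replicate 1 (-0.48, edgeR adjusted p = 0.0614). B2m, at 0.37 ± 0.16 (edgeR adjusted p = 0.0622), was called higher with RLE (0.41) and upper-quartile scaling (0.55) and by DESeq2. These comparisons and the one with BL6 share the CAS129 MN libraries.

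The effector list in CAS129 MN held 8 genes higher and 15 lower than BL6 MN of 37 tested, where 27% of all genes were higher and 32.5% lower, so these counts lie near the background. Leaving out a library gave 5 to 8 higher and 11 to 16 lower, the 5 without CAS129 MN replicate 1. Against 129 MN, 3 were higher and 28 lower, where 25.2% of all genes were higher and 31.4% lower. Leaving out a library there gave 1 to 2 higher and 21 to 26 lower, with 1 and 21 without 129 MN replicate 1 and 1 and 23 without replicate 2. In both comparisons 1 of the lower genes, Ube2l6, was at 0 in all hybrid libraries. The rises included Ifitm3, at 137 ± 14.7 CPM in CAS129 MN and 78.2 ± 27.7 CPM in BL6 MN, and Eif2ak2, at 66.0 ± 3.49 CPM in CAS129 MN and 38.4 ± 6.69 CPM in BL6 MN (SD, 3 and 7 libraries). The falls included Adar, an RNA-editing enzyme, at 58.7 ± 3.74 CPM in CAS129 MN and 104 ± 26.4 CPM in BL6 MN. Jak1, at 124 ± 8.24 CPM in CAS129 MN and 472 ± 102 CPM in BL6 MN, fell as well (-2.03 ± 0.18), as did Pias1, an inhibitor of STAT proteins (-1.44 ± 0.16). Pluripotency markers were higher in CAS129 MN than in BL6 MN, as given above, and Ifitm2, high in PSC, was at 102 ± 11.7 CPM in CAS129 MN and 16.5 ± 3.93 CPM in BL6 MN. Pan-neuronal markers summed to 1015 to 1385 CPM in CAS129 MN, against 3903 to 12224 CPM in BL6 MN, and all 10 tested were lower (9 to 10 with a library left out). Motor neuron markers summed to 334 to 426 CPM in CAS129 MN, against 570 to 1850 CPM in BL6 MN, with 8 of 10 lower (6 to 9). In each CAS129 MN library and in 129CAS MN, 1 marker of each of these lists had 0 counts, while none did in BL6 MN. The limit given above for low hybrid values holds for these counts of markers as well. The part of these cell mixtures in the values was not tested.

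**Figure D4:**
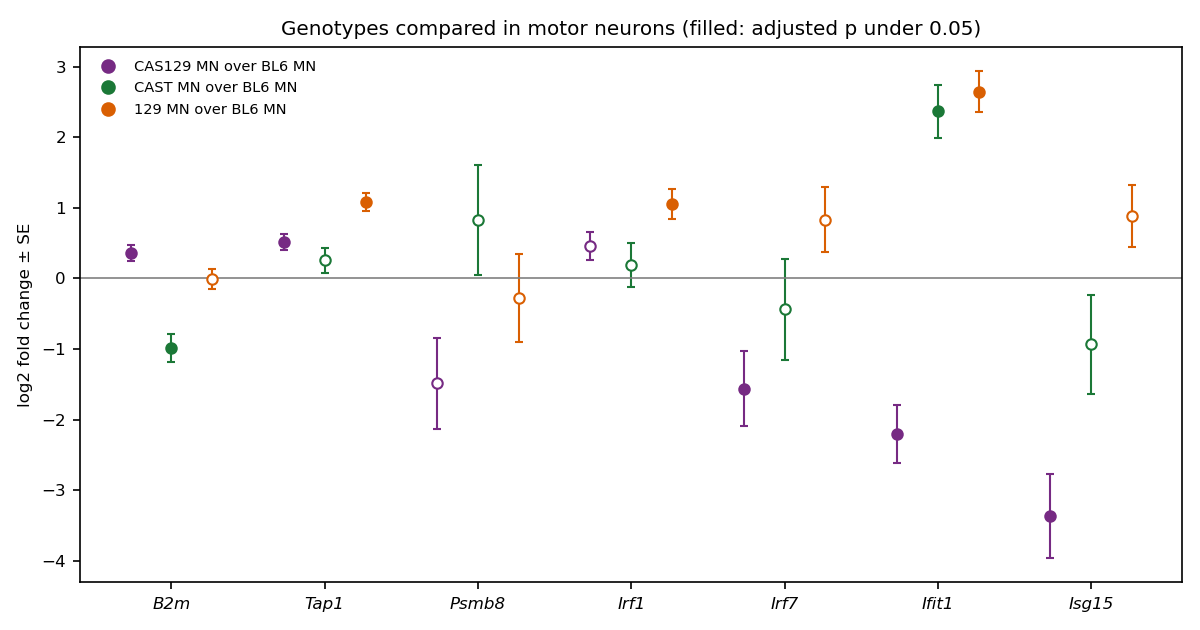
Log2 fold change of CAS129, CAST and 129 MN over BL6 MN for each gene, with SE bars. Filled points passed at an adjusted p under 0.05. Ifit1 is above 0 in CAST and 129 and below 0 in CAS129, and Tap1 is above 0 in all 3, filled in CAS129 and 129.

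The 129CAS motor neuron library did not share the low levels of CAS129 for Ifit1, Isg15 and Irf7. It is a single library, so each SE and adjusted p below rests on the spread of the other groups. Ifit1 was at 40.8 CPM in 129CAS MN, against 0.510, 0.865 and 1.49 CPM in CAS129 MN (log2 fold change 5.27 ± 0.49, edgeR adjusted p = 1.01e-05). Isg15 was at 12.1 CPM, against 1.02, 0 and 0.933 CPM (4.06 ± 0.73, edgeR adjusted p = 0.00165), and Irf7 at 9.01 CPM, against 1.87, 0.346 and 2.05 CPM (2.51 ± 0.70, edgeR adjusted p = 0.0166). For each of these the 129CAS library lay above all CAS129 libraries, as it also did for Tap1, Psmb8 and Irf1, which did not pass. The share of all genes for which this held was not counted, so it does not mark out the called genes. B2m, at 354 CPM in 129CAS MN, differed from CAS129 MN by -0.10 ± 0.20, and Tap1 by 0.16 ± 0.19. The 3 called genes are of 7, where 30.3% of all genes were called (14.6% higher and 15.7% lower). Of 37 other effectors, 17 were higher in 129CAS MN and 2 lower, the falls being Ifitm1 and Ifitm2. With 1 library of 129CAS, its line, culture and depth (25.69 M counts, against 5.61 M to 6.29 M) cannot be told apart from the genotype. Csf1r was also high in it, at 164 CPM against 25.03 ± 0.418 CPM in CAS129 MN, with Ptprc at 0.576 CPM, and pluripotency markers summed to 34.9 CPM against 419 to 1162 CPM. Endothelial markers summed to 239 CPM in 129CAS MN, against 36.2 to 43.4 CPM in CAS129 MN, motor neuron markers to 1495 CPM, against 334 to 426 CPM, and pan-neuronal markers to 4935 CPM, against 1015 to 1385 CPM. Mesenchyme markers summed to 29662 CPM in 129CAS MN, against 63710 to 69361 CPM in CAS129 MN, with 12 of 18 lower (8 to 10 with a library left out). The part of cell mixture in these differences between the hybrids was not tested.

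Of the pathway genes, some had no count at all in the hybrids. Tmem173, which encodes the DNA-sensing adaptor STING, was at 0 in all hybrid libraries, 18.03 CPM in CAST MN, 4.07 ± 0.3 CPM in 129 MN and 18.8 ± 8.02 CPM in BL6 MN. Ube2l6, the enzyme that passes Isg15 to its targets, was at 0 in all hybrid libraries, 6.91 CPM in CAST MN, 8.12 ± 1.69 CPM in 129 MN and 10.3 ± 2.96 CPM in BL6 MN. As both parental strains had counts, the 0 values of the hybrids are given as listed, and no fold is drawn from them. The 7 genes described here had counts in 129CAS MN and in at least 1 CAS129 library of each cell type.

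Around Tap1 and Psmb8, the major histocompatibility region from the start of H2-K1 to the end of Mog held 154 genes with values. In CAST MN, 2 of 95 tested genes there were lower than in BL6 MN (2.11%), against 6.58% of all genes. In CAS129 MN, 46 of 95 were lower than in BL6 MN (48.4%), against 32.5% of all genes. H2-T24, a class I-like gene, was at 0.0577 ± 0.0999 CPM in CAS129 MN, 0.108 CPM in CAST MN, 0.572 ± 0.247 CPM in 129 MN and 11.4 ± 4.06 CPM in BL6 MN (SD). Whether allele differences from the reference lowered its counts was not tested.

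Over the 20 libraries, the genes most like each of the 7 by Pearson r of log2(CPM + 1), among 15845 others, fell in different groups. Ifit1 was most like Rtp4 (r = 0.966) and Irgm2 (0.944), and Isg15 most like Oasl2 (0.903) and Usp18 (0.893), which are themselves interferon-induced. B2m was most like Col8a1 (0.983) and Rnase4 (0.981), Tap1 like Ammecr1l (0.959) and Arhgef28 (0.957), and Psmb8 like Rims4 (0.914) and Lancl2 (0.913). Irf1 was most like Stap2 (0.938) and Arhgef16 (0.923), and Irf7 less closely like Cxcl16 (0.808) and Ccdc13 (0.779). Among the 7, the highest r was 0.869 between B2m and Tap1, and Ifit1 with Isg15 gave 0.837. These values describe libraries that share cell type, genotype and depth, and carry no test.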

How the data were processed

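The deposited table holds raw counts of reads for each gene, not normalised by the authors. Per the submitters' processing notes, STAR and the build GRCm38 (mm10) were used for the 20 libraries, while HTSeq, TopHat2 2.1.1 and SAMtools are named for 7 further samples that are not analysed here. The counting program, its strand setting and any use of strain genomes are not stated in the labels. Of 28 columns of counts, 20 were matched to samples by name and 8 were not used. The table leaves 40 of 27071 identifiers without a match in GENCODE M21.

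Libraries were grouped by the cell type and genotype in their titles, with totals of 4.5 M to 44.57 M counts. Counts limit precision: 95% intervals of count ratios are exact and cover counting error only. The labels do not say that replicates are separate cultures, so p-values measure only a spread that may be technical. No pair of replicates within a group looked like 1 library deposited more than once (lowest chi-square per degree of freedom 2.96).

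Tests used edgeR 4.0.16 in R 4.3.3 (TMM, glmQLFit, glmQLFTest, 2-sided, Benjamini-Hochberg over all genes, threshold 0.05). Genes with 1 CPM or more in 2 or more libraries were tested. The fits were also run on simulated counts, with a fixed dispersion not taken from these libraries and changes only in genes well above that minimum. That check does not cover genes with few counts or the spread of these libraries. MN and PSC were compared over 17 libraries with genotype as a term, changes within and between genotypes in 1 fit of 8 groups, and genotypes within 6 PSC and within 14 MN libraries. SE is the absolute log2 fold change over the square root of F. CPM are TMM-scaled, and are given per kilobase of exon where genes are compared. Alternatives were RLE and upper-quartile scaling, no filter, DESeq2 1.42.0, a replicate block, fewer groups and leaving out each library.

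The 7 genes and the gene lists were chosen with earlier results of these data known. Named genes are the members, up to 4 called genes of each pathway list by mean CPM in the main comparisons, up to 2 of each marker list, and the 2 genes most like each member, with others marked in the text. Promoters of the members, H2-K1 and H2-D1 are not analysed here.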

Additional observations from a re-analysis of the deposited data

Results flagged for a closer look

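Among the 7 BL6 MN libraries, Ifit1 at 7.12 CPM in replicate 6 lay far from the others, whose highest value was 4.58 CPM. Chance sets apart about 1 in 20 groups in this way. Isg15 was also highest in that library, at 11.01 CPM.

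The MN-PSC change of Irf1 differed between CAS129 and BL6 by 1.31 on the log2 scale, that of Psmb8 between CAST and BL6 by 5.66, and that of Ifit1 between CAST and BL6 by 7.62, each by the test of the difference itself. The Psmb8 and Ifit1 values rest on 3 and 2 counts in CAST PSC and 1 library of CAST MN, and that of Ifit1 on BL6 PSC replicate 1 as well.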

How the results depend on the processing

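Of the 15 counts of called genes among the 7, 6 stayed within 1.5 times of the value reported in every setting tried, and 9 did not. With the replicate number as a block, CAS129 against CAST MN called 2, CAST against BL6 MN 1, CAST against BL6 PSC 2, MN against PSC 6, and both differences between genotypes in the MN-PSC change 0. With no filter, CAS129 and CAST against BL6 PSC each called 4, and by DESeq2 CAST against BL6 PSC called 2. With RLE scaling the difference between CAS129 and BL6 called 0. With only the groups compared, CAS129 against 129 MN called 7 and CAST MN against CAST PSC 2. Leaving out 1 library gave 0 to 1 for CAS129 and for CAST against BL6 PSC, 3 to 6 for MN against PSC, 0 to 2 for the difference between CAS129 and BL6, and 1 to 3 for that between CAST and BL6. Leaving out BL6 PSC replicate 1 turned Ifit1 in BL6 MN against BL6 PSC to 4.08, and leaving out each library gave -1.21 to 4.08. The cause of these moves was not tested, beyond the fewer samples. Directions of values that did not pass were not compared.

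The replicate numbers were not taken to pair the samples. Of 31 same-number pairs, 6 had a correlation of deviations over 0.1 (range -0.16 to 0.57). Of these, 4 were among the 6 pairs within PSC (CAST with BL6 0.35 and CAST with CAS129 0.46, but CAS129 with BL6 -0.02), and 2 among the 25 others. Between groups of 2 libraries, replicates 1 and 2 give the same value by construction, so the pairs within PSC are not separate checks. Whether the replicate numbers pair the PSC libraries cannot be decided from these values. Beside the counts above, the block lost calls of single genes, such as Irf1 in 129 against BL6 MN (0.87, edgeR adjusted p = 0.0515).

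Calls over all genes moved by over 1.5 times in some comparisons. Leaving out a library gave at least 2800 of 5397 in 129 against BL6 MN, 2132 of 3553 in CAS129 against BL6 PSC, 1084 of 1933 in CAS129 against CAST PSC, and 226 to 2105 of 1455 in CAST against BL6 PSC, where DESeq2 gave 2227 and no filter 2682. CAST against BL6 MN had 1831, 895 with only these groups, 766 with the block and up to 3805 without BL6 MN replicate 2. The difference between CAS129 and BL6 had 2884, 1887 with the block and at least 1409 without a library. That between CAST and BL6 had 1153, 2015 by DESeq2, 500 with the block and 570 to 2567 without a library. Splits moved too: the difference between CAS129 and BL6 had 2166 higher calls and 718 lower, against 1258 and 1116 with RLE scaling and 1659 and 1610 by DESeq2, and CAS129 against CAST PSC 313 and 1620, against 580 and 1418 with upper-quartile scaling. RLE scaling shifted the members by a median of -0.27 in CAS129 MN against CAS129 PSC. Upper-quartile scaling shifted them by 0.21 in CAS129 against CAST PSC. With plain totals, 40 of the 42 group means with replicates moved by less than 1 SD. Ratios of H2-K1 and H2-D1 to B2m were not run.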
